A study of Arabidopsis thaliana with 6 samples.

Results

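Some genes of *ein2-5* seedlings carried several separate H3K9Ac peaks rather than 1. The genes described here are the protein-coding genes of TAIR10 whose body, from the outermost annotated 5′ end to the outermost 3′ end, holds the summits of 2 or more peaks of the air list. There were 1225 of them among the 27444 coding genes of the 5 nuclear chromosomes, which is 4.46%. A further 14627 coding genes held 1 air summit and 11592 held 0. The genes were chosen by the summit positions of the air list, so the number of air summits is a description and not a finding. In the ethylene list 788 coding genes, or 2.87%, held 2 or more summits.

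The seedlings were 3 days old, grown in the dark and treated for 4 h with 10 ppm ethylene or with air. Both treatments used the same line, *ein2-5*, in which EIN2 is not functional; EIN2 relays ethylene perception from the receptors in the endoplasmic reticulum to transcription. Chromatin of whole seedlings was precipitated with an antibody against histone H3 acetylated at lysine 9, and each treatment had 2 H3K9Ac libraries beside 1 control library. The 2 libraries of a treatment were pooled before peaks were called, so there is 1 list per treatment, no spread between replicates can be given and no difference was tested. Intervals below cover counting error only.

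Acetylation of H3K9 neutralizes a positive charge of the histone tail and is found on nucleosomes just downstream of the transcription start sites (TSSs) of active genes. A gene can have more than 1 annotated TSS when its transcripts begin at different places, for instance at a start in front of the first exon and at another inside the first intron. A start is here called a second start when it lies 200 bp or more downstream of the outermost one. A summit is called at a start when it lies between 100 bp upstream and 600 bp downstream of it and no other start of the gene is nearer. In a gene with several summits, the one nearest the 5′ end is called the first summit and all others are called later summits.

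A small group of genes held a summit at the outermost start and another at a second start. There were 61 such genes, 4.98% of the 1225. The 100 bases in front of the second start are shown for 4 of them whose window holds no annotated UTR and whose fold enrichment at the second start was high, so that the DNA of this inner start can be seen. Sequences are from TAIR10.1, each written 5′ to 3′ in the direction of the gene and ending 1 base before the start, and capitals mark TATAAA.
RRP41, minus strand, chr3:22803193-22803292: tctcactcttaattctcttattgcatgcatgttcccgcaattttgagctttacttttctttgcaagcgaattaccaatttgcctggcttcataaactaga
PHOT1, plus strand, chr3:16818247-16818346: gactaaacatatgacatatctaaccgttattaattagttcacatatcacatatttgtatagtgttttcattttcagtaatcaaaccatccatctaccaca
AT2G26690, minus strand, chr2:11349549-11349648: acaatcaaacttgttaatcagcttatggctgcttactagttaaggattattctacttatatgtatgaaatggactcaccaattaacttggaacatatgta
AT1G71710, minus strand, chr1:26977001-26977100: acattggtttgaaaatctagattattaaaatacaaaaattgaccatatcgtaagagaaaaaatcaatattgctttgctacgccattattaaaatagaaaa
The 100 bases in front of the outermost start are shown for AT2G26690, as an example of a window that holds TATAAA.
AT2G26690 outermost start, minus strand, chr2:11350994-11351093: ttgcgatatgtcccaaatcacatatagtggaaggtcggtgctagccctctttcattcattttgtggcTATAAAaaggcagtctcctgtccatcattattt

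None of the 4 windows at second starts held TATAAA. In front of the outermost start it was held by AT2G26690 and AT1G71710 and not by RRP41 or PHOT1. TATAAA, the core of the TATA box to which TATA-binding protein attaches, was searched on both strands of each window of 100 bases. It was present in front of 12 of the 98 second starts that carried a later summit (12.2%, 95% Wilson interval 7.15 to 20.2%). Among the 237 second starts with any downstream summit, first summits included, the share was 14.8%. For comparison, it was present in front of 16.3% of all 3357 second starts and 25.8% of the 27444 outermost starts of coding genes. CACGTG, the G-box bound by bHLH and bZIP factors, was in 0 of the 98 windows and 9 of the 237 (3.80%), against 2.11% of those at all second starts and 3.61% of those at outermost starts. TGGGCC, an element known from promoters of ribosomal protein and other constitutive genes, was in 4 of the 98 windows (4.08%) and 7 of the 237 (2.95%), against 2.59% at all second starts and 8.81% at outermost starts. These letters describe the windows and locate no binding site.

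PPDK (AT4G15530, chromosome 4 from 8864615 to 8870979) encodes pyruvate orthophosphate dikinase, which is made as a plastid form and a cytosolic form from separate promoters. In air its peaks had summits 424 and 2059 bp from the outermost start, with 232 and 293 H3K9Ac tags over them. Tags are the number of extended H3K9Ac reads over the summit, recovered from the pileup, of which at most 400 are possible because 1 tag per position and strand was kept. The second start lies 1660 bp downstream, so the later summit was 399 bp behind it, inside the coding sequence. In ethylene the peak at the second start was present, with 285 tags, and no peak overlapped that at the outermost start.

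The same arrangement was seen at RRP41 (AT3G61620), a core subunit of the RNA exosome. Its second start lies at 912 bp, and the peak behind it had 331 tags in ethylene and 336 in air. The air peak at the outermost start, with 192 tags, had no ethylene peak over it. PHOT1 (AT3G45780), the blue light receptor of phototropism, has a second start at 1626 bp. Its air peak of 2239 bp behind that start, with 356 tags, was met in ethylene by peaks whose summits lay 2153 and 3026 bp from the outermost start, with 345 and 256 tags. The small air peak at the outermost start of PHOT1, with 148 tags, was not overlapped in ethylene. In these 3 genes the peak that the ethylene list holds is the taller one of the air list. Over all 61 genes, the peak at the outermost start alone was overlapped as often, in 12 genes, as that at the second start alone, in 12.

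At other genes both peaks were in both lists. U2AF35B (AT5G42820, chromosome 5 from 17169283 to 17172787), which encodes the small subunit of the splicing factor U2AF, has starts 1083 bp apart. Its first summit had 306 tags in ethylene and 307 in air, and its later summit 280 tags in ethylene and 287 in air. UBC6 (AT2G46030), a ubiquitin-conjugating enzyme, has starts 594 bp apart, with 247 tags in ethylene and 239 in air at the outermost one. At its second start there were 313 tags in ethylene and 310 in air. GAD2 (AT1G65960), a glutamate decarboxylase that makes GABA, has a second start 2606 bp downstream, behind which 262 tags in ethylene and 273 in air were found. At the outermost start of GAD2 there were 314 tags in ethylene and 315 in air. AT2G26690, a major facilitator superfamily transporter, had 316 tags in both lists at the outermost start, and 296 in ethylene and 292 in air at the second start 1445 bp away. Within each of these genes the tag numbers of the lists lay close to each other and the order of the summits by height was the same.

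Over the 61 genes, the second start lay a median of 947 bp downstream of the outermost one and its summit a median of 295 bp behind it. The median fold enrichment in air, which is the peak caller's ratio of pileup to local background, was 2.16 at the second start and 2.34 at the outermost start. An ethylene peak overlapped both air peaks in 23 genes, that at the second start alone in 12, that at the outermost start alone in 12 and neither in 14.

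**Figure D1:**
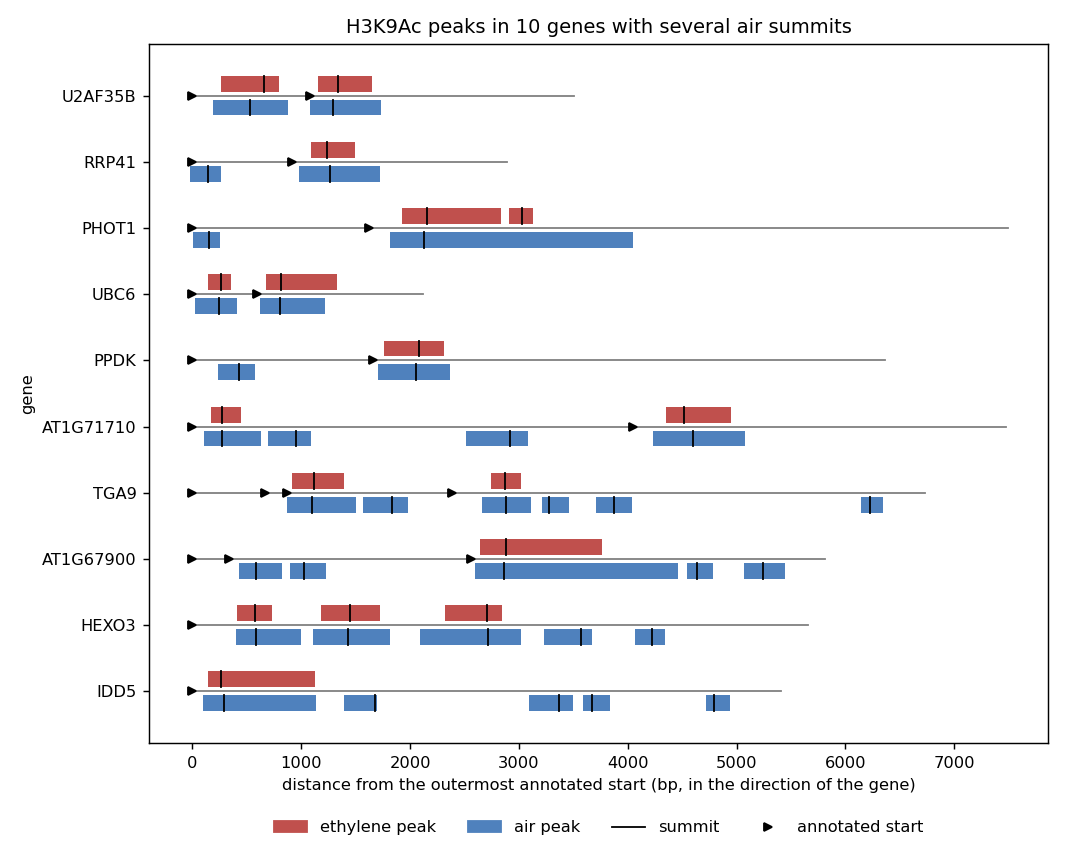
Peaks of 10 genes with several air summits, drawn to scale in bp from the outermost annotated start in the direction of each gene; the ethylene peaks are above the gene line and the air peaks under it, black bars are summits and triangles are annotated starts. RRP41, PHOT1 and PPDK have an ethylene peak only behind the second start, and TGA9 has 6 air summits against 2 in ethylene.

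The genes with several air summits were longer than genes with 1. Their median length was 3001 bp (95% interval of the median 2926 to 3102 bp, n = 1225), against 2393 bp for genes with 1 summit and 1512 bp for genes with 0. The 126 genes with 3 or more summits had a median of 3860 bp. Length alone did not order the genes, since the share with 2 or more summits was highest in the middle classes. In the air list it was 1.42% of genes under 2 kb, 6.70% at 2 to 4 kb, 9.24% at 4 to 6 kb, 8.43% at 6 to 10 kb and 5.74% of the 122 genes of 10 kb or more. In the ethylene list the shares of the same classes were 1.25%, 4.38%, 4.60%, 3.29% and 1.64%. The longest intron had a median of 435 bp in the genes with several summits and 289 bp in genes with 1 summit, and the median number of exons was 5 in both. Of the genes with several summits 31.2% overlapped another annotated gene, against 33% of genes with 1.

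The extremes show how loosely length is tied to the number of summits. The shortest was AT1G05835, which encodes a PHD finger protein in 670 bp. Its summits lay 253 and 507 bp from the start with 194 and 157 air tags, and an ethylene peak, with 176 tags, overlapped the first. AT2G37750 (723 bp) and AT3G25597 (1071 bp), both uncharacterized, held 2 air summits and 1 ethylene summit each, and the later summit of AT3G25597 lay at the start of its neighbour AT3G25600. The longest was AT1G58602, a disease resistance gene of the NB-ARC and LRR class with 19695 bp, whose 2 summits had 191 and 149 tags in air. EMB3142, which encodes a nuclear pore protein in 14915 bp, and EMB2771 (AT5G05560), annotated as an E3 ubiquitin ligase gene of 14733 bp, also held 2 summits in air and 1 in ethylene.

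**Figure D2:**
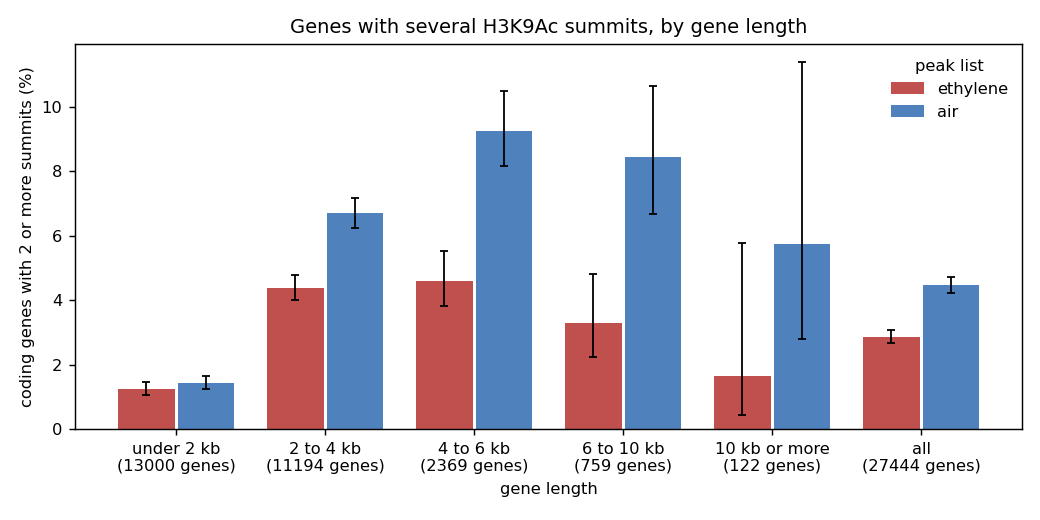
Share of coding genes with 2 or more summits in the body, by gene length, in the ethylene list (red) and the air list (blue); bars are percentages of all coding genes of the class and error bars are 95% Wilson intervals. The air share is highest at 4 to 6 kb, with 9.24%, and the ethylene share of each class is below it.

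Neighbouring air summits of a gene lay a median of 1139.5 bp apart (95% interval 1098 to 1202 bp, n = 1376 pairs), and the middle 50% of pairs were 742 to 1898 bp apart. Of the pairs, 33% were 500 to 1000 bp apart and 8.94% were nearer than 500 bp. Between the edges of neighbouring peaks the median gap was 396 bp, and 178 gaps, or 12.9%, were shorter than 100 bp. The shortest gap was 52 bp, since the peak caller joins stretches that lie within 1 tag length of each other, so that separate here means separated by the caller. The median spacing grew with the gene, with 692 bp in genes under 2 kb, 1205 bp at 2 to 4 kb, 1461.5 bp at 4 to 6 kb and 1959 bp at 6 to 10 kb. Both summits must lie in the gene body, so spacing is bounded by gene length and some rise follows from the rule. In the class of 6 to 10 kb the middle 50% of pairs ran from 997 to 5519 bp.

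The widest spacing, 15744 bp, was in AT1G58602. GCT (AT1G55325), a subunit of the Mediator complex that links transcription factors to RNA polymerase II, had summits 196 and 10061 bp from its start. The first had 257 tags in ethylene and 255 in air, and the later one, with 188 air tags, was not overlapped in ethylene. NRPA1 (AT3G57660), the largest subunit of RNA polymerase I, had summits at 265 and 9194 bp and was met in ethylene at the later one. Its later summit had 181 tags in ethylene and 174 in air, and the first, with 196 air tags, had no ethylene peak. The gene overlaps another annotated gene.

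**Figure D3:**
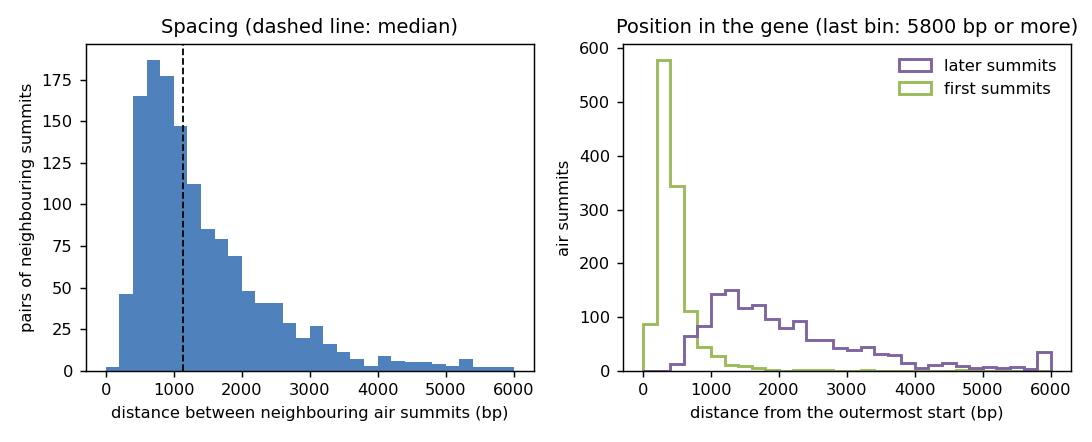
Left, distance in bp between neighbouring air summits of a gene in bins of 200 bp, with 19 pairs of 6000 bp or more not drawn and a dashed line at the median of 1139.5 bp. Right, distance of later and first air summits from the outermost start, with the first summits gathered in front of 1000 bp and the later ones spread along the gene.

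Most first summits sat at a TSS and most later summits did not. Of the 1376 later summits, 0.799% lay at the outermost start, 7.12% at a second start, 5.31% at the start of another coding gene, 2.98% at the start of a noncoding gene or pseudogene and 83.8% at no annotated start (95% interval 81.8 to 85.6%). Of the 1225 first summits, 72.4% lay at the outermost start, 11.8% at a second start and 14.1% at no annotated start. For the only summit of genes with 1 the shares were 80.4%, 7.66% and 11.0%. Of the bases downstream of the first peak, 4.13% lay in the window of a second start, against the 7.12% of later summits found there.

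Second starts were annotated more often among the genes with several summits than among genes with 1 in each length class. A second start was annotated for 300 of the 1225 genes (24.5%, 95% interval 22.2 to 27.0%), against 12.1% of the genes with 1 air summit and 10.7% of all coding genes. The median number of annotated transcripts was 2 in genes with several summits and 1 in genes with 1, and its part in these shares was not tested. Among genes under 2 kb it was annotated for 7.57% of those with several summits and 4.02% of those with 1. At 2 to 4 kb the shares were 22.7% with several and 14.3% with 1, at 4 to 6 kb 35.6% with several and 22.8% with 1, and at 6 to 10 kb 54.7% with several and 24.3% with 1. At 10 kb or more there were 7 genes with several summits, of which 3 had a second start (42.9%, 95% interval 15.8 to 75%), an interval that includes the 37.9% of genes with 1 summit. Of the 1703 summits that were not at the outermost start, 243 were at a second start (14.3%), whose windows cover 6.89% of the bases there. Of these 243, 145 were first summits of genes whose outermost start carried no summit upstream of them. A summit at a second start is not particular to genes with several summits. Of the 1772 genes with 1 summit and a second start, 1120 (63.2%) had their summit at a second start. Of the 300 genes with several summits and a second start, 222 had a summit there, with more summits per gene to place. With a second start required to lie 500 bp or more downstream, 14.3% of the genes had one and 6.65% of the downstream summits were at one. No matching share of bases is given for this setting.

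The 8 genes with the highest fold enrichment at a second start were AT2G15580, CAT6, AT1G78150, APRR2, HMA4, AT4G38520, U2AF35B and GATA11, and in 6 of them the second start lay within 408 bp of the outermost one. AT2G15580, a RING finger protein gene, had a fold enrichment of 3.88 in air there, with 364 tags in ethylene and 365 in air. Its later summit, at no annotated start, had 259 tags in ethylene and 274 in air. CAT6 (AT5G04770), a cationic amino acid transporter, had 356 tags in ethylene and 361 in air at the second start, and 323 in ethylene and 319 in air at a later summit 3386 bp from the outermost start. The later summit was lost from the ethylene list in AT1G78150 (170 air tags), in the response regulator-like gene APRR2 (210 air tags), in the protein phosphatase 2C gene AT4G38520 (144 air tags) and in GATA11 (159 air tags). HMA4 (AT2G19110), the pump that loads zinc and cadmium into the xylem, held 2 air summits and 4 ethylene summits, because its air peak of 1524 bp was met by 3 separate ethylene peaks.

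Starts of other genes held 114 of the 1376 later summits (8.28%), 73 of them at a coding gene and 41 at a noncoding gene or pseudogene, against 98 later summits at a second start. Counting first summits too, 88 downstream summits (5.17%) lay at the start of another coding gene, and of these 67 were at a gene on the opposite strand. A further 46 (2.70%) lay at the start of a noncoding gene or pseudogene. Starts of other genes cover 4.27% of the bases not at the outermost start. Of the only summits of genes with 1, 0.902% lay at the start of another gene. AT5G08340, a nucleotidylyl transferase gene, had its later summit 3327 bp from the start in the 3′ UTR, at the start of AT5G08350 on the other strand, with 272 tags in ethylene and 266 in air. In the last 500 bp of the gene lay 382 later summits, 27.8% of them, against 20.6% of the bases downstream of the first peak.

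Within the transcribed part the later summits lay mainly in coding sequence. Of the 1376, 67.4% were in coding sequence, which makes up 46.8% of the bases downstream of the first peak. Introns held 16.5% of later summits and 31.5% of these bases, and 3′ UTRs held 12.5% and 17.9%. The 201 bases around a later summit had a median GC content of 42.8%, those around a first summit 43.3% and those around the only summit of genes with 1 43.8%, against 38.4% over the whole of the 1225 genes. Around later summits in coding sequence the median was 44.8% and around those in introns 36.3%. GC content moved with coding sequence, and its part in these positions was not tested.

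Later peaks were lower and narrower than first peaks. Their median fold enrichment in air was 1.88, against 2.38 for first peaks and 2.40 for the only peak of genes with 1 summit. The median number of tags over the summit was 188 for later, 266 for first and 269 for only summits. The median breadth was 416 bp for later, 623 bp for first and 603 bp for only peaks. Among the 165 later summits with a fold enrichment of 2.5 or more, 24 (14.5%) were at a second start and 30 (18.2%) at the start of another gene. Among the 500 later summits under 1.75 these shares were 3.80% and 3.00%.

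TGA9 (AT1G08320, chromosome 1 from 2621860 to 2628594), a bZIP factor that acts in anther development, held the most air summits, 6 in 6735 bp. They lay 1100, 1837, 2882, 3281, 3872 and 6224 bp from the outermost start, with 293, 165, 221, 163, 158 and 167 tags. The 2 tallest lay at second starts, at 873 and 2382 bp, and these were the ones the ethylene list held, with 286 and 206 tags. The other 4, between 158 and 167 tags, were not overlapped in ethylene.

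The 4 genes with 5 air summits showed a like ranking. HEXO3 (AT1G65590), a beta-hexosaminidase that trims sugar chains of glycoproteins, had 358, 293, 241, 159 and 147 tags in air from 5′ to 3′. The first 3 were met in ethylene, with 347, 289 and 228 tags, and HEXO3 has 1 annotated start. AT1G67900, a protein of the NPH3 family of phototropic response, had its tallest air summit, with 300 tags, behind a second start at 2559 bp, and this summit alone was overlapped in ethylene, with 285 tags. Its other air summits had 148 to 192 tags. IDD5 (AT2G02070), a zinc finger factor of the indeterminate domain family, had 317 tags at the outermost start in air and 135 to 167 at the other 4 summits. Only the tallest was met in ethylene, with 321 tags. DMR6 (AT5G24530), an oxygenase that hydroxylates salicylic acid and whose loss gives resistance to downy mildew, had 306, 172, 213, 157 and 176 air tags. In ethylene it had peaks at the first, with 301 tags, and at the last, with 191 tags, so here the order by height did not decide which peak was met.

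Among the genes with 4 summits, AT1G71710, a gene of the DNAse I-like superfamily, had 257 tags in ethylene and 259 in air at the outermost start. At 4598 bp, behind a second start at 4046 bp, it had 333 tags in ethylene and 329 in air. The summits between them, with 179 and 197 air tags, were not overlapped in ethylene. BLH4 (AT2G23760), a BEL1-like homeodomain factor of leaf shape, had its first summit, with 329 tags in ethylene and 295 in air, met by an ethylene peak, and 3 later ones with 140 to 210 air tags not met. AT3G26440, a gene for a putative transmembrane protein that overlaps other genes, had only its last summit met, with 256 tags in ethylene and 271 in air.

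Of the air peaks that made up the 1225 genes, 51.5% were overlapped by an ethylene peak by at least 1 bp, against 67.1% of all 18314 air peaks. For later peaks the share was 33.1% (95% interval 30.7 to 35.7%), for first peaks 72.1% and for the only peak of genes with 1 summit 73.2%. The share climbed with the fold enrichment in air. Of later peaks under 1.75, 10.4% were overlapped, against 29.5% of first and 31.0% of only peaks. From 1.75 to 2 the shares of later, first and only peaks were 20.7%, 38.2% and 46.3%, and from 2 to 2.5 they were 51.3%, 73.8% and 71.6%. From 2.5 to 3 they were 85.5%, 90.3% and 88.3%, and at 3 or more 100% of the 41 later peaks, 98.3% of first and 96.1% of only peaks were overlapped. Within a class the later peaks were also lower, with a median of 222 tags against 257 for only peaks from 2 to 2.5, and 275 against 292 from 2.5 to 3. Peaks at a second start were overlapped in 65.8% of cases, those at the outermost start in 70.3% and those at no annotated start in 35.7%. Their median fold enrichment in air was 2.31, 2.37 and 1.89 in the same order. From 2 to 2.5 the shares were 73.8%, 72.9% and 53.0%, and from 2.5 to 3 they were 88.3%, 88.5% and 89.0%.

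**Figure D4:**
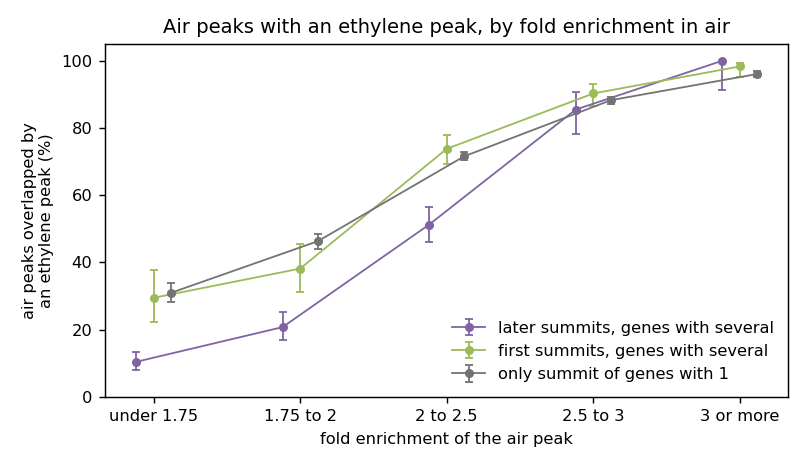
Share of air peaks overlapped by an ethylene peak, by fold enrichment of the air peak, for later and first summits of genes with several and for the only summit of genes with 1; points are percentages and bars 95% Wilson intervals. Later peaks lie under the others up to 2.5 and beside them above it, at 85.5% from 2.5 to 3.

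By gene, 344 of the 1225 (28.1%, 95% interval 25.6 to 30.7%) also had 2 or more summits in the ethylene list, 666 (54.4%) had 1 and 215 (17.6%) had 0. Every air peak was overlapped in 277 genes, some but not every in 733 and none in 215. Of the 1099 genes with exactly 2 air summits, both peaks were overlapped in 270, the first alone in 521, the later alone in 104 and neither in 204. In 25 genes 1 ethylene peak spanned neighbouring air peaks. The reverse was seen in 69 genes, where 2 or more ethylene peaks met 1 air peak, which had a median breadth of 1383 bp. In addition, of the 14627 genes with 1 air summit, 444 held 2 or more ethylene summits, 10255 held 1 and 3928 held 0. Over all coding genes, 788 (2.87%) held 2 or more ethylene summits.

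These numbers moved with the length of the lists. The ethylene list holds 12864 peaks and the air list 18314, and the ethylene control was sequenced less deeply, with 4354374 tags used against 13726993. With the air list reduced to its 12864 peaks of lowest p, 310 genes held 2 or more air summits, 64.5% of them had 2 or more ethylene summits and 78.9% of their air peaks were overlapped. Depth of the control and treatment cannot be told apart here.

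The genes whose second highest ethylene summit had the largest fold enrichment were HEXO3, AT2G31730, IAA7, NAC1 and AT5G08340. IAA7 (AT3G23050), a repressor of auxin response, had 323 tags in ethylene and 321 in air at the outermost start. At its later summit, 1054 bp from the start in coding sequence, it had 293 in ethylene and 300 in air. NAC1 (AT1G56010), a NAC factor of lateral root formation, had 299 in ethylene and 300 in air at its first summit and 306 in ethylene and 283 in air at the later one. AT2G31730, a bHLH gene, had 307 in ethylene and 300 in air at the outermost start. Behind its second start at 988 bp, an ethylene peak of 1049 bp with 235 tags covered air peaks of 231 and 187 tags.

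Of the 215 genes with no overlapping ethylene peak, the 4 with the largest fold enrichment in air are given here. AT2G43700, a lectin receptor-like kinase gene, had 328 and 155 tags in air at its outermost and second starts. AT1G58235, uncharacterized, had 251 and 195, AT4G24820, a subunit of the 26S proteasome, 300 and 199, and AT5G13560, annotated as a structural maintenance of chromosomes protein, 299 and 210. In the last pair the later summit lay at the start of another coding gene.

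Where 1 air peak met 1 ethylene peak, the heights differed little. Over 1211 such pairs the median was 272 tags in ethylene and 274 in air, with a median difference of -1 tag and a middle 50% from -9 to 6. No summit can hold more than 400 tags, and peaks called in 1 list alone do not enter these pairs. The ethylene peak was narrower in 1141 pairs and broader in 69, with median breadths of 427 bp in ethylene and 677 bp in air. The ethylene list was called against the smaller control, and its part in the breadths was not tested. Fold enrichment was set against different controls in the lists, so its values are not compared between treatments.

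The order of heights within a gene was mostly the same in both lists. In 236 genes with 2 air peaks that each met their own ethylene peak, the first summit was the taller in 170 in ethylene and 173 in air. The same summit was the taller in both lists in 210 of the 236 genes, and in 176 of the 178 genes whose air summits differed by 20 tags or more. The median spacing was 1285 bp in ethylene and 1266.5 bp in air.

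**Figure D5:**
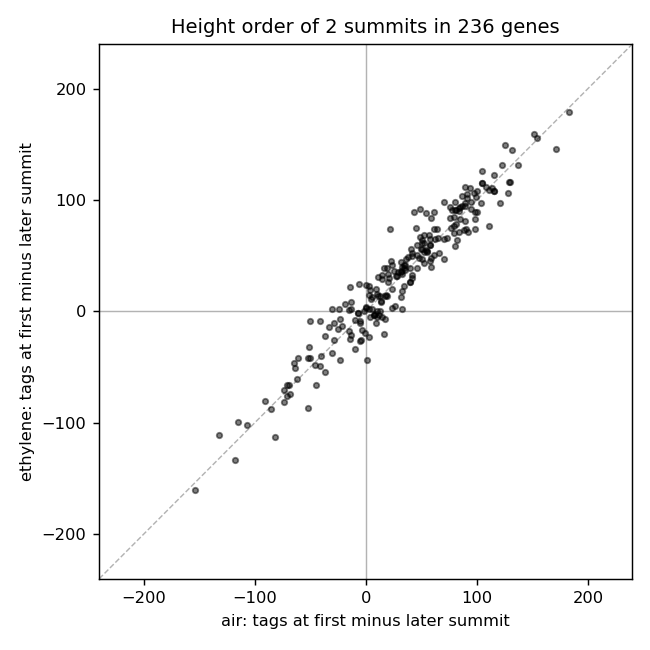
Tags at the first minus tags at the later summit in 236 genes with 2 air peaks that each met their own ethylene peak; ethylene on the vertical axis, air on the horizontal axis, 1 point per gene, with a dashed line of equality. The points follow the line, and in 210 genes the same summit was the taller in both lists.

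The lists of known genes are read beside the 4.46% of all coding genes, and the 7.73% of coding genes with an air summit, that held several air summits. Lists this short fix no share closely, and none was tested. Of 15 genes of ethylene signalling, 14 had an air summit and 2 had several, EBF1 and EIL1, while 1 had several in ethylene, EBF1. EBF1 (AT2G25490), the F-box protein that targets EIN3 and EIL1 for degradation, had 357 tags in ethylene and 343 in air at its outermost start, and 260 in ethylene and 275 in air at 1077 bp. Its last summit, in the 3′ UTR 3078 bp from the start, had 187 tags in air and no ethylene peak over it. EIL1 (AT2G27050), a transcription factor of the ethylene response, had 287 tags in ethylene and 289 in air at the outermost start, and a later summit of 184 air tags in coding sequence that was not overlapped.

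Of 20 genes of light response and growth in the dark, 20 had an air summit and 3 had several, PHYA, PIL5 and PIF4, while 4 had several in ethylene. PHYA (AT1G09570), the far-red light receptor, had a tall air summit of 336 tags 956 bp from the outermost start, 33 bp upstream of a second start, which had 334 tags in ethylene. Its first summit, with 221 air tags 259 bp from the outermost start, was not overlapped. This summit counts as at no annotated start, because another annotated start, downstream of it, is nearer. PIL5 (AT2G20180), also known as PIF1, a bHLH repressor of seed germination in the dark, kept both summits, with 357 tags in ethylene and 354 in air at the first and 201 in ethylene and 200 in air at the later one. PIF4 (AT2G43010), a bHLH factor of stem elongation, held 3 ethylene summits against 2 in air, because its air peak of 1575 bp was met by 3 ethylene peaks. Of 31 chromatin regulators, 22 had an air summit and 1 had several, ATX2 (AT1G05830), a trithorax-like gene for a histone methyltransferase. ATX2 had 271 tags in ethylene and 275 in air at the outermost start, and 136 air tags at a summit in the 3′ UTR 7440 bp away that was not overlapped.

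At the edge of the rule, the weakest peaks that made a gene count had a −log10 p of 2.01. AT1G61350 and AT4G19380, on different chromosomes, each held such a peak, with a fold enrichment of 1.42 and 166 tags. RAD50 held another with 143 tags. Just outside, 13 genes with 1 summit had the next summit at most 50 bp beyond the gene, and just inside, 8 genes with exactly 2 summits had one at most 50 bp from an end. With a fold enrichment of 2 or more required in both lists, 381 genes held 2 or more air summits. In all, 24 peaks counted for a pair of genes that overlap.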

How the data were processed

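Reads were aligned by the authors to TAIR10 (the submitters' processing notes name Bowtie 1.1.2 and SAMtools). Peaks were called on the 2 pooled H3K9Ac libraries of each treatment with MACS2 2.1.0.20150603 with a p-value limit of 0.01, no fragment model and a fixed extension of 200 bp. In ethylene 43572576 of 61025284 H3K9Ac tags and 4354374 of 8831652 control tags were used, and in air 45582654 of 63192903 and 13726993 of 28617456. The deposited lists give each peak's coordinates, its breadth, the signal (pileup) over its summit, a fold enrichment (a ratio over local background), the −log10 p-value and the −log10 q-value, all by the authors' peak caller. The q-value was not used. Tags over a summit are the pileup divided by the scaling factor of 0.0999 for ethylene or 0.301 for air.

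Gene models were those of RefSeq for TAIR10.1. The chromosome names match and no peak ends beyond a chromosome, of which chromosome 1, for example, has 30427671 bp. A gene was counted when its body held 2 or more air summits. Starts within 200 bp were merged. Wilson intervals of shares and order-statistic intervals of medians are at 95%. The members and gene lists were chosen with earlier results of these data known. Named genes are the 8 with the most air summits (the longer gene first among ties), the 3 shortest and 3 longest, the 3 with the widest spacing, the 8 with the highest fold enrichment at a second start, the 5 with the highest second ethylene peak, 4 with no ethylene peak and the largest fold enrichment in air, and every listed gene. PPDK, RRP41, PHOT1, UBC6, GAD2, AT2G26690 and genes at the edge of the rule were named after their values were seen. Alternatives changed the fold limit, list length, spacing, overlap, gene body and start windows. The sequence of 1 window in front of a second start is not reported here. Steps were tested on simulated data. Python 3.11.15, pandas 2.3.3, NumPy 2.4.6, SciPy 1.17.1 and Matplotlib 3.10.9 were used.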

Additional observations from a re-analysis of the deposited data

How the results depend on the processing

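No paired analysis was possible because the 2 libraries of a treatment were pooled before peaks were called, and for the same reason no replicate could be left out. The main values are 1225 genes, a median length of 3001 bp, a median spacing of 1139.5 bp, 24.5% of genes with a second start, 14.3% of downstream summits at one, 28.1% of genes with 2 or more ethylene summits and 51.5% of air peaks overlapped. In this order, a fold enrichment of 2 or more in both lists gave 381 genes, 3277 bp, 1373 bp, 27.8%, 17.4%, 33.1% and 55.9%. The air list reduced to the size of the ethylene list gave 310 genes, 3378.5 bp, 1488 bp, 30.3%, 19.5%, 64.5% and 78.9%. With summits 500 bp or more apart the median spacing was 1208 bp. Without genes that overlap another gene the median length was 2918 bp, 21.7% had a second start and 49.3% of air peaks were overlapped. Without summits at the start of another gene, 25.5% of genes had 2 or more ethylene summits and 49.5% of air peaks were overlapped. With the body extended by 250 bp upstream the median spacing was 1041 bp. Requiring the air summit inside an ethylene peak gave 49.0% of air peaks overlapped, and requiring the ethylene peak to cover 50% of the air peak gave 41.3%. With a second start 500 bp or more downstream, 14.3% of genes had one and 6.65% of downstream summits were at one, and with a window of 300 bp on either side of a start 8.73% of downstream summits were at a second start. The cause of these shifts was not tested beyond the smaller number of peaks that the first 2 settings leave. The controls differed in depth, and whether this changed which low peaks were called was not tested. No summit can hold more than 400 tags, and annotated starts need not be used in these seedlings.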

Other observations

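Families read from the product names of the annotation differed in how often their genes carried several air summits. These families were chosen with earlier results of these data known, and no share was tested. Of 248 cytochrome P450 genes, 16 (6.45%) held 2 or more summits in ethylene and 22 (8.87%) in air, with a median length of 2053 bp over the family. Of the 112 P450 genes with any air summit, 19.6% had several, against 7.73% of all coding genes with an air summit. Glycosyltransferases had 14 of 189 genes (7.41%) in ethylene and 17 (8.99%) in air, and transcription factors 58 of 827 (7.01%) in ethylene and 69 (8.34%) in air. Of those with any air summit, 13.9% of glycosyltransferases and 13.6% of transcription factors had several. Shares below those of all coding genes were seen for F-box proteins, with 8 of 653 genes (1.23%) in ethylene and 5 (0.766%) in air, beside 2.87% of all coding genes in ethylene and 4.46% in air. Only 141 of the 653 F-box genes had any air summit, and 3.55% of these had several. Ribosomal protein genes had 3 of 344 (0.872%) in ethylene and 13 (3.78%) in air, which is 4.29% of the 303 with an air summit. Kinases stood between these, with 60 of 1388 (4.32%) in ethylene and 74 (5.33%) in air, or 8.27% of those with an air summit. The kinase set holds metabolic and lipid kinases, PPDK among them, beside protein kinases.

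The following P450 genes were chosen after their values were seen. CYP86A2, a fatty acid hydroxylase of cutin synthesis, had 222 and 376 tags in air at summits 405 and 1661 bp from its start, and both peaks were overlapped in ethylene. Its taller summit lay at the start of a noncoding gene. CYP84A4 was also taller at its later summit, with 205 and 337 air tags, and both were overlapped. ROT3, an enzyme of brassinosteroid metabolism that affects leaf length, held 3 summits in each list, but 2 of its 3 air peaks were overlapped in ethylene. TT7, the flavonoid 3′-hydroxylase, had 261 and 228 air tags and no ethylene peak over either. BAS1, which inactivates brassinosteroids, had 267 and 175 air tags and no ethylene peak over either.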
